A study of Arabidopsis thaliana with 4 samples.

Results

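A group of 94 probe sets had higher signal without phosphate than with full nutrients after 4 h and lower signal after 100 h, in rosette leaves of Arabidopsis thaliana. The osmotin gene OSM34, a beta-1,3-glucanase gene, a class III peroxidase gene, the calreticulin gene CRT1b and the clock gene GI (on 1 of its 4 probe sets) were among them. The probe sets were chosen by their measured values on all 4 arrays: at least 1.5-fold above full nutrients at 4 h, at least 1.5-fold below full nutrients at 100 h, and the brighter array of each pair at an intensity of 22.45 or more. Intensities under 7.25 were first set to 7.25, the floor. Of the 8247 probe sets that are not controls, 100 met these conditions. AOP3, SAG29, AT2G18150, AT2G43590 and AT1G02300 account for 6 of them and were left out by name, and no gene whose symbol starts with BGLU was among them. Of the remaining 94, 23 name 1 gene each, 3 name several genes, and 68 are not listed in the platform annotation used here.

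Each of the 4 arrays is the only one of its group. Plants of the accession Col-5, raised on agar with sucrose, then kept in hydroponics under constant light and labelled with a flowering growth stage, were given full nutrients, with phosphate at 0.25 mM, or a medium lacking phosphate and supplied with extra potassium sulphate. Rosette leaves were taken 4 h or 100 h after nutrient removal, which gives full nutrients at 4 h, no phosphate at 4 h, full nutrients at 100 h and no phosphate at 100 h. How many plants an array stands for is not labelled, and no allele, transgene or other agent is named for any group. The title codes do not match the labelled hours, and the code of the array labelled full nutrients at 100 h (P24) has the form used for the no-phosphate arrays (PO6, P72). The labels were followed, and values against the 4 h full-nutrient array are given as well.

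Phosphate enters every nucleic acid, membrane lipid and energy carrier of the cell. In Arabidopsis, PHR1-type transcription factors switch on transporters, secreted phosphatases and lipid remodelling when phosphate is short, and SPX proteins hold these factors back when it is plentiful. Leaves short of a nutrient also alter genes of defence, of senescence and of protein folding, which are not particular to phosphate. Osmotins and beta-1,3-glucanases belong to the pathogenesis-related proteins, which leaves accumulate after infection, osmotic stress or ageing.

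With 1 array in a group, the array and the condition cannot be told apart. Since the rule used all 4 arrays, every fold and count below is a description and carries no p-value. The error of measurement was taken from genes that have several probe sets (76 genes, 163 probe sets), as the SD of the log2 ratio within a gene. It was 0.33 for the phosphate ratio at 4 h and 0.42 at 100 h, so the threshold of 1.5-fold (0.58 on the log2 scale) lay 1.75 and 1.41 SD from 0. Of the 94 probe sets, 50 were past 2 SD at both times, 14 of them with a gene name. The same ratios chose the group, and this count was not set beside that of all probe sets, so nothing is read from it. The error of measurement covers neither plants nor hybridisations.

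Technical measures also moved with the solution. The 9 spike-in probe sets, for RNA added to each hybridisation, had a mean log2 ratio of no phosphate to full nutrients of -0.51 at 4 h and -1.06 at 100 h. For GAPDH, whose 3' signal over its 5' signal reflects the quality of RNA and labelling, that quotient was 4.07 in full nutrients and 2.61 in the absence of phosphate at 4 h. At 100 h it was 4.52 and 2.12. For ubiquitin it moved less, 3.09 and 2.57 at 4 h and 3.35 and 2.97 at 100 h. Within the GAPDH transcript the log2 phosphate ratio at 4 h was 0.20 at the 3' end, 0.44 in the middle and 0.85 at the 5' end. At 100 h the GAPDH ratio was -1.12, 0.13 and -0.03 in the same order. Ratios of the size that chose the group were therefore found at 1 end of a control transcript and not at the other. The part of these measures in the values of the group was not tested. In leaf tissue, fewer cells of a type and less RNA per cell cannot be told apart.

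Among all probe sets bright enough at 4 h, 11.3% were at least 1.5-fold higher without phosphate (505 of 4478), and at 100 h 13.1% were at least 1.5-fold lower (569 of 4331). Both conditions were met by 100 of the 4053 probe sets bright enough at both times, or 2.47%. These 100 made up 19.8% of those higher at 4 h and 17.57% of those lower at 100 h. The reverse pattern, lower at 4 h and higher at 100 h by the same folds, was found for 190 probe sets, or 4.69%. Since these ratios chose the group, nothing is read from the shares.

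Over the 94 probe sets, the median log2 ratio of no phosphate to full nutrients was 0.80 at 4 h (1.75-fold, range 0.59 to 3.33) and -1.02 at 100 h (2.03-fold lower, range -3.54 to -0.60). Over the 4053 probe sets the medians were 0.02 and 0.01. When arrays were scaled by their spike-in signals, the medians of the 94 became 1.32 and, with the sign turned, 0.0394, and 18 of the 94 then met the rule. The size of the ratio was larger at 100 h than at 4 h for 67 of the 94. A ratio of 2-fold or more was reached by 21 at 4 h, by 49 at 100 h and by 17 at both times. The rule chose the group by these ratios, and the counts were not set beside those of all probe sets. The measurement SD was also larger at 100 h (0.42) than at 4 h (0.33), so nothing is read from the counts.

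**Figure D1:**
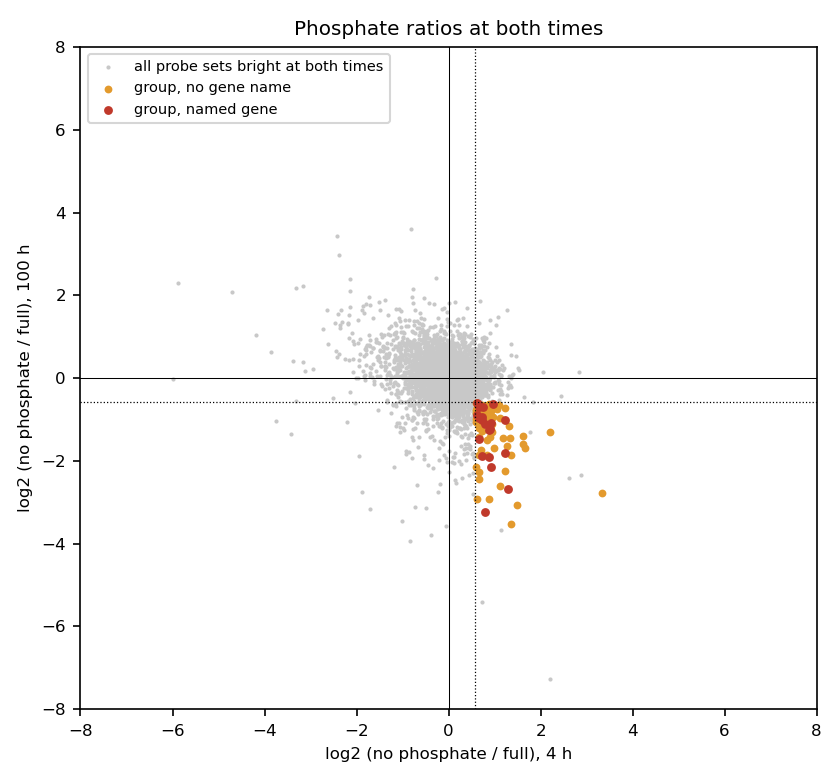
Each point is a probe set, with its log2 ratio of no phosphate to full nutrients at 4 h on the horizontal and at 100 h on the vertical axis; dotted lines mark 1.5-fold, grey points are the 4053 probe sets bright enough at both times, red points the 23 named and orange points the 71 unnamed probe sets of the group. Most of the group lies close to the dotted lines, with a median of 0.80 at 4 h and -1.02 at 100 h.

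The median intensity of the group at 4 h was 122.4 in full nutrients against 206.2 without phosphate. At 100 h it was 129.2 against 56.5. No phosphate at 4 h was the brightest array for 68 of the 94 probe sets and full nutrients at 100 h for 26. No phosphate at 100 h was the dimmest for 75 and full nutrients at 4 h for 19. The rule lets no other array be the brightest or the dimmest, so nothing is read from these counts. On 8 probe sets an array was under the floor, 7 of them on the array without phosphate at 100 h and 1 on the array with full nutrients at 4 h, and their folds against that array are lower bounds. All 4 arrays were at an intensity of 100 or more for 32 probe sets.

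When the 2 times were compared, most of the group was lower at 100 h without phosphate, while with full nutrients the group was mixed. From 4 h to 100 h without phosphate, 79 of the 94 were at least 1.5-fold lower, 2 were at least 1.5-fold higher, and the median log2 ratio was -1.52. With full nutrients, 42 were at least 1.5-fold higher at 100 h, 14 at least 1.5-fold lower and 38 within 1.5-fold, with a median of 0.51. Among all probe sets bright enough, 28.9% were lower and 26.5% higher at 100 h without phosphate, and 22.7% lower and 17.0% higher with full nutrients. The rule fixes how far the time ratio without phosphate lies below that with full nutrients, so these shares are not independent of it.

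**Figure D2:**
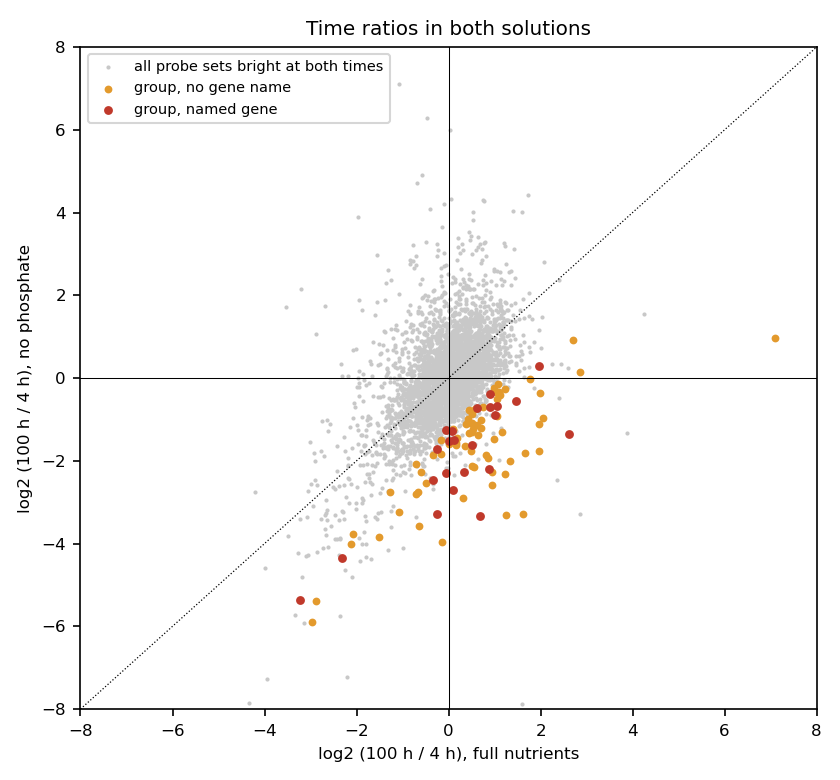
Each point is a probe set, with its log2 ratio of 100 h to 4 h in full nutrients on the horizontal and without phosphate on the vertical axis; grey points are the 4053 probe sets bright enough at both times, red points the 23 named and orange points the 71 unnamed probe sets of the group, and the dotted line marks equal ratios. The group lies below the line by construction and spreads along it, from OSM34 (-3.24 and -5.37) at the lower left to a probe set with 7.09 and 0.97 at the right.

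The osmotin and beta-1,3-glucanase genes of the group were brighter at 4 h than at 100 h in both solutions. OSM34 (AT4G11650), the osmotin gene of the thaumatin-like family, gave an intensity of 973.6 in full nutrients against 1817.0 without phosphate at 4 h, and at 103.1 and 43.8 at 100 h. The beta-1,3-glucanase gene AT4G16260, whose enzyme cuts callose and fungal wall glucans, was at 795.7 and 1472.7 at 4 h and at 159.9 and 72.5 at 100 h. Both were a little under 2-fold higher without phosphate early (1.87-fold and 1.85-fold) and a little over 2-fold lower late (2.35-fold and 2.21-fold). The difference between the times was far larger than that between the solutions: with full nutrients OSM34 was 9.44-fold and AT4G16260 4.98-fold lower at 100 h, and without phosphate 41.5-fold and 20.3-fold lower. They were the only named genes of the group at least 1.5-fold lower at 100 h with full nutrients, beside 12 unnamed probe sets.

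Genes of perception and defence signalling were in the group as well. AT3G44400, which encodes a disease resistance protein of the TIR-NBS-LRR class, was at 381.0 in full nutrients against 601.2 without phosphate at 4 h, and at 302.4 and 108.3 at 100 h. Here the late difference (2.79-fold lower) exceeded the early one (1.58-fold higher), while the full-nutrient arrays differed by 1.26-fold. The receptor-like kinase gene AT2G19130, of the S-locus lectin class, had 35.9 on both full-nutrient arrays, 55.5 without phosphate at 4 h and 19.2 without phosphate at 100 h. Its full-nutrient level was thus the same at both times, and the no-phosphate level lay 1.55-fold above and 1.87-fold below it. AT4G11000, an ankyrin repeat gene, was at 25.7 and 47.5 at 4 h and at 27.3 and 6.20 at 100 h. The last value is under the floor, so its late difference is at least 3.77-fold, against 1.85-fold early.

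The class III peroxidase gene AT2G37130, whose enzyme is secreted and uses hydrogen peroxide, was at 415.2 in full nutrients against 724.0 without phosphate at 4 h, and at 839.4 and 391.8 at 100 h. It behaved unlike OSM34 over time: full nutrients at 100 h was its brightest array, 2.02-fold above 4 h, and the no-phosphate array went the other way, 1.85-fold lower at 100 h. The phosphate ratio was 1.74-fold higher early and 2.14-fold lower late.

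Calcium and protein folding were represented by CRT1b and AT4G00700. CRT1b (AT1G09210), a calreticulin, is a calcium-binding chaperone of the endoplasmic reticulum. Its probe set was at 120.0 in full nutrients against 281.8 without phosphate at 4 h, and at 116.0 and 57.2 at 100 h. It was 2.35-fold higher early and 2.03-fold lower late, around a full-nutrient level that differed by 1.03-fold between the times, and was among the 3 named genes at 2-fold or more at both times. AT4G00700, which encodes a protein with C2 domains of the kind that bind calcium and lipids, was at 42.2 and 69.9 at 4 h and at 53.4 and 14.4 at 100 h (1.66-fold higher, 3.71-fold lower).

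GI (GIGANTEA, AT1G22770) acts in the circadian clock and in the photoperiodic control of flowering, and its transcript is known to cycle over the day. The probe set in the group was at 185.3 in full nutrients against 290.5 without phosphate at 4 h, and at 344.3 and 223.6 at 100 h. Both differences were close to the thresholds, 1.57-fold higher and 1.54-fold lower. GI has 3 other probe sets, which the rule did not take, and 2 of them were bright enough at both times. The first, at 52.5, 41.0, 69.4 and 66.2 in the same order, had log2 phosphate ratios of -0.36 and -0.07. The other, at 29.2, 21.9, 24 and 15.3, had -0.42 and -0.63. No other probe set of GI was higher without phosphate at 4 h, so the pattern rested on 1 of its 4.

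Beside GI, CRT1b was the only named gene of the group with further probe sets. They had intensities of 1.60, 0.60, 4.50 and 1.80, and of 9.90, 1.20, 11.0 and 12.6, in the order used above. All of these values are under the level of 22.45, and they carry no measurement of the pattern. The other 21 named genes have 1 named probe set each.

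A chromatin gene and a zinc-finger gene were included. PKDM7D (AT1G08620) encodes a histone demethylase of the JmjC class that acts on H3K4 methylation. It was at about 18 in full nutrients against 33.5 without phosphate at 4 h, and at 32.3 and 3.90 at 100 h. Without phosphate it was 1.90-fold higher early and at least 4.46-fold lower late, with the last value under the floor. The PHD-finger gene AT2G37520 was at 55.0 and 87.5 at 4 h and at 58.3 and 35.9 at 100 h, with nearly equal full-nutrient levels and differences of 1.59-fold and 1.62-fold.

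Genes of metabolism included QPT, CTF2A and AT2G29590. QPT (AT2G01350), quinolinate phosphoribosyltransferase, catalyses a step of NAD synthesis in the plastid. It was at 73.5 in full nutrients against 124.3 without phosphate at 4 h, and at 61.4 and 38.0 at 100 h (1.69-fold higher, 1.62-fold lower). CTF2A (AT2G35660), a predicted flavin-dependent oxidoreductase, was at 51.4 and 85.3 at 4 h and at 106.7 and 53.1 at 100 h, 1.66-fold higher and 2.01-fold lower. Its level without phosphate at 100 h was close to its full-nutrient level at 4 h. The thioesterase-family gene AT2G29590 had 29.1 and 53.8 at 4 h and 41.2 and about 17 at 100 h, 1.85-fold higher and 2.37-fold lower.

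AT2G01610, of the family of invertase and pectin methylesterase inhibitors, was at 41.8 in full nutrients against 79.7 without phosphate at 4 h, and at 114.6 and 54.3 at 100 h. Its full-nutrient level was 2.74-fold higher at 100 h, while that without phosphate was 1.47-fold lower. The late difference was 2.11-fold and the early one 1.91-fold.

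For the other named genes no role is given here. AT4G29030 was at 17.1 in full nutrients against 41.9 without phosphate at 4 h, and at 105.4 and 16.5 at 100 h. It was 2.45-fold higher and then 6.39-fold lower, and its full-nutrient level was 6.16-fold higher at 100 h, the largest such ratio among the 23 named genes. AT4G19240 was at 42.3 and 72.9 at 4 h and at 68.2 and 5.00 at 100 h, which is at least 9.41-fold lower late. With values set to the floor, this was the largest late difference of the 23. AT2G13770 was at 30.5 and 71.0 at 4 h and at 25.6 and 1.1 at 100 h, 2.33-fold higher and at least 3.53-fold lower. The last values of AT4G19240 and AT2G13770 are under the floor, and that of AT4G29030 is above it. With no floor, the late log2 ratio was -3.77 for AT4G19240 and -4.54 for AT2G13770, so the order of these genes is not known.

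The remaining named genes had smaller late differences. AT1G23040 was at 186.7, 295.1, 203.2 and 104.1 (full nutrients and no phosphate at 4 h, then at 100 h), with 1.95-fold lower signal late. AT2G35820 was at 14.3, 23.8, 56.2 and 29.1 and was the only named gene whose level without phosphate was higher at 100 h than at 4 h, by 1.22-fold. AT2G25250 had 34.1, 67.0, 63.4 and 41.3, nearly 2-fold higher early (1.96-fold) and 1.54-fold lower late. AT4G18810 had 30.8, 49.0, 47.2 and 29.6, and its no-phosphate level at 100 h was close to its full-nutrient level at 4 h. AT2G26780 had 87.5, 133.3, 84.6 and 55.7, with 1.52-fold at both times the nearest to the thresholds among named genes.

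**Figure D3:**
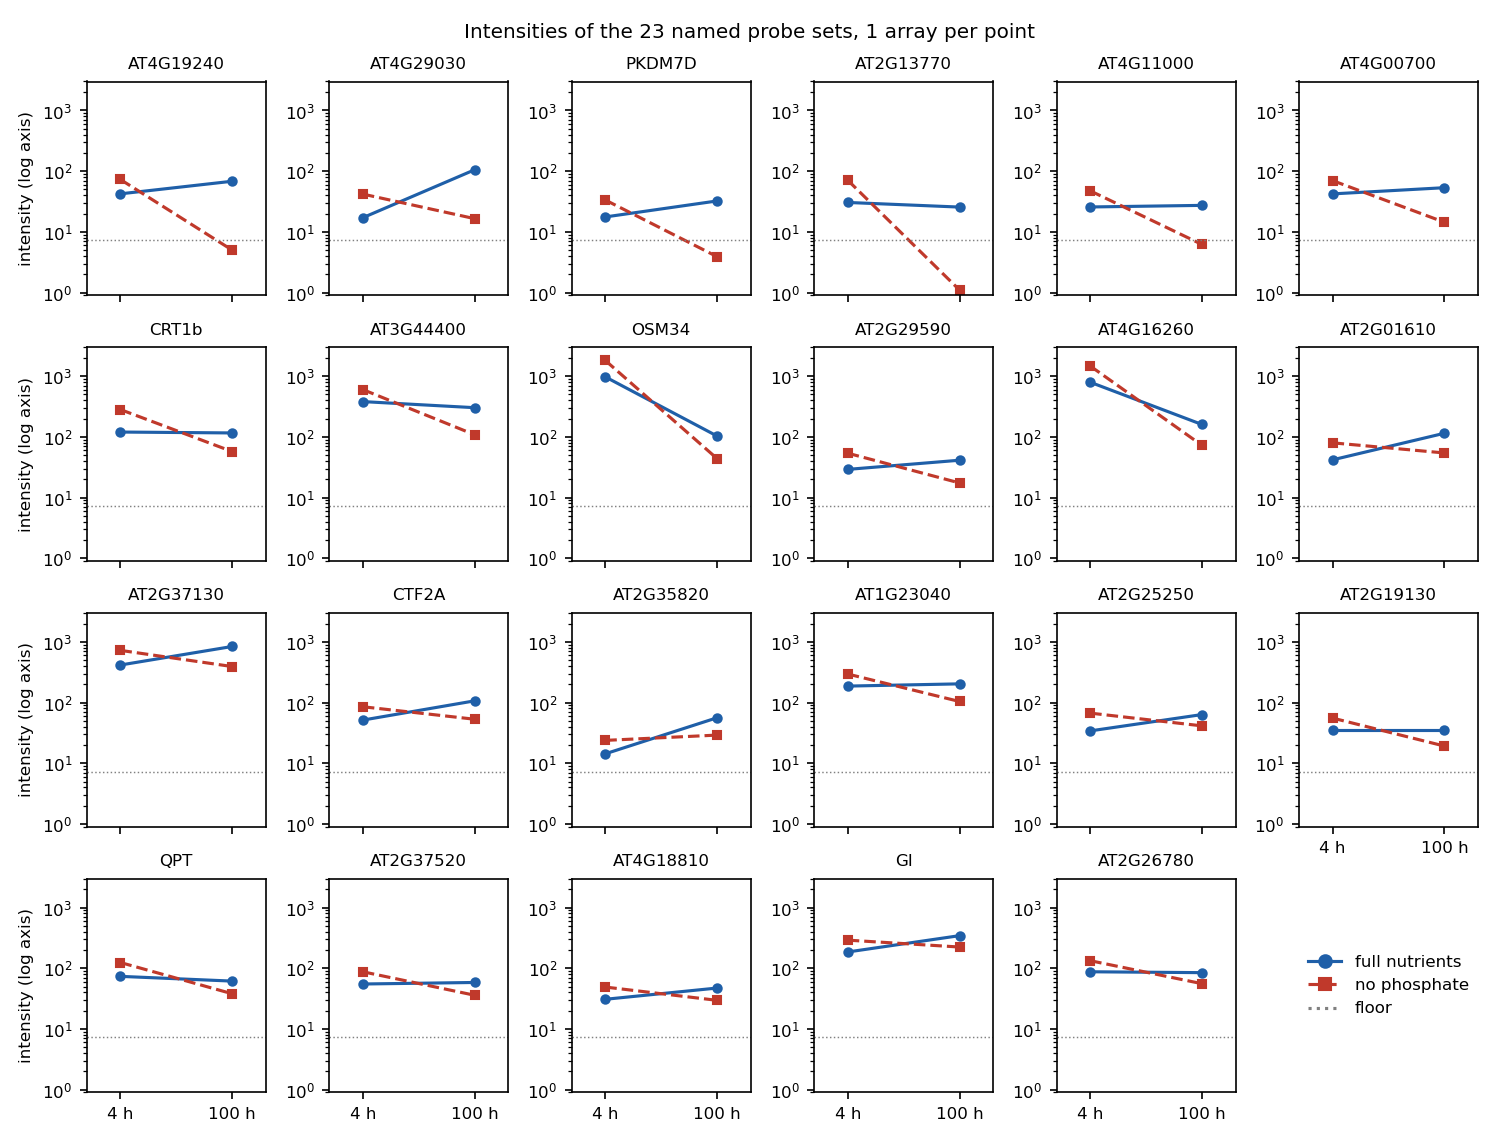
Each panel shows the intensity (log axis) of 1 named probe set at 4 h and 100 h, with blue circles and solid lines for full nutrients, red squares and dashed lines for no phosphate, and a dotted line for the floor of 7.25; each point is 1 array. The lines cross in every panel, as the rule requires, and the panels differ in slope: OSM34 and AT4G16260 decline in both solutions, CRT1b and AT2G19130 are level in full nutrients, and AT2G37130 and AT4G29030 are higher at 100 h in full nutrients.

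By the course in full nutrients, the 23 named genes divided as follows: 10 were at least 1.5-fold higher at 100 h, 11 within 1.5-fold and 2 lower, against 42, 38 and 14 of the 94. The median log2 phosphate ratio at 4 h was 0.84, 0.76 and 0.79 in these 3 classes, and at 100 h it was -1.14, -0.92 and -1.22. The time ratio without phosphate had a median log2 value of -0.94 in the class with higher full-nutrient levels at 100 h. In the class with lower ones it was -3.67. The classes were cut on the time ratio in full nutrients, and the rule ties the ratio without phosphate to it. Nothing is read from this contrast.

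An intensity of 1000 or more on at least 1 array was found for 13 of the 71 unnamed probe sets and for 2 of the 23 named genes. The share over all probe sets was not counted, and the difference was not tested. The pair of ratios was largest for 15189_s_at, at 3.90 in full nutrients against 73.1 without phosphate at 4 h, and at 986.5 and 142.9 at 100 h. This probe set was at least 10.1-fold higher early and 6.90-fold lower late, and its full-nutrient level rests on an array under the floor at 4 h. The brightest was 12761_s_at, at 1764.1 and 4546.8 at 4 h and at 5447.2 and 469.3 at 100 h, 2.58-fold higher and 11.6-fold lower. These were picked for naming after their values were seen, and which genes they measure is not known here.

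The rule did not use the endings of the probe set names, but it left out 6 of 100 probe sets by gene symbol. The ending _s_at, which marks probe sets whose probes match several transcripts, was carried by 35 of the 94 (37.2%), against 21.9% of the 4053 probe sets bright enough at both times and 20.5% of the 190 with the reverse pattern. The named ones are OSM34, AT4G16260, AT2G37130, CRT1b, AT3G44400, AT4G11000, CTF2A and AT2G26780, so their signals may hold those of similar genes. The share with 1 gene name was 24.5%, against 41.2% of the 4053. All 6 probe sets left out had a gene name, so the rule itself lowered the share in the group. Neither difference was tested. Probe sets of consecutive numbers were both in the group in 2 cases, among them the probe set of AT3G44400 and an unlisted one (19425_i_at).

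The 23 named genes lay on chromosomes 1 (4 genes), 2 (11), 3 (1) and 4 (7). Of the 1668 placed probe sets bright enough at both times, 38.0% were on chromosome 2 and 29.6% on chromosome 4, against 47.8% and 30.4% of the 23. No 2 of the named genes were neighbours in the RefSeq gene table, and the closest pair, CTF2A and AT2G35820, lay 21 genes apart.

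Some probe sets were kept in or out by narrow margins. Just inside the threshold at 4 h were 16447_at, 14627_i_at and 13547_at, with ratios of at most 1.512-fold. AT2G26780, 12934_at and 17673_s_at were just inside at 100 h, at 1.51-fold to 1.52-fold. Just outside at 4 h were AT4G36648 (1.499-fold higher early, 1.74-fold lower late), ZAP1, a WRKY transcription factor (1.499-fold and 1.56-fold), and 16629_at (1.49-fold and 1.65-fold). Just outside at 100 h were 15846_at (3.57-fold higher early, 1.49-fold lower late), 15052_at (1.58-fold and 1.49-fold) and AT4G34540 (1.94-fold and 1.47-fold). These margins are far smaller than the measurement SD, so the border of the group is not sharp.

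Of 239 genes in 12 lists of phosphate starvation, defence hormones, senescence, dehydration, detoxification, heat shock, glucosinolates, photosynthesis and other organs, 21 were matched to a named probe set, 30 probe sets in all. None of the 30 was in the group, since the 2 that met the rule (AOP3 and SAG29) were left out by name. Over all probe sets bright enough at both times, 2.47% met the rule before genes were left out. Some of the 30 were not bright enough at both times, so these counts have unlike bases. Genes of the lists may also be among the 4383 unlisted probe sets, 68 of which are in the group. The phosphate starvation list had 2 of its 48 genes matched. WRKY6, a transcription factor that represses PHO1, was at 153.3 in full nutrients against 78.9 without phosphate at 4 h, and at 36.3 and 40.2 at 100 h, lower early by 0.96 on the log2 scale. LPR1, a ferroxidase of the root's response to low phosphate, was under the floor on all 4 arrays.

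Other lists held genes with part of the pattern. COR47, a dehydrin, had log2 phosphate ratios of 1.11 and 0.68 at 4 h on its 2 probe sets and -0.38 and -0.32 at 100 h, so the late difference was under 1.5-fold. GSTF3, a glutathione transferase, had 0.65 and -0.30. WRKY53, a transcription factor that promotes leaf senescence, was lower at both times, with -0.81 and -1.02. THI2.1, a jasmonate-responsive thionin, ran the other way on its 1 probe set bright at both times, with -0.26 at 4 h and at least 2.41 at 100 h, where full nutrients (4.60) lay under the floor. The heat shock protein gene Hsp70-2 had 0.22 at 4 h and -2.0 at 100 h. The 2 probe sets of AT3G09440, another gene of that family, had 0.07 and 0.12 at 4 h and -1.16 and -0.37 at 100 h. KIN2, a cold- and abscisic acid-responsive gene, had the opposite early sign on both probe sets, -1.12 and -1.19 at 4 h, and 0.17 and 0.39 at 100 h. Leaf photosynthesis genes, which check the labelled tissue, were at intensities of 55.7 to 8879.8 on 11 probe sets for 8 genes. Of the 11, none was at least 1.5-fold higher without phosphate at 4 h and 5 were lower, against 15.2% lower among all probe sets bright enough. At 100 h none was lower and 1 was higher, against 14.6% higher. Some of the 11 share a gene, so these counts are not of independent genes. At 4 h PSAE-1 had -0.70, -0.69 and -0.51 on the log2 scale, and PSBW had -1.83 and -0.43. None of the 20 salicylate defence genes was matched to a named probe set. Genes of flower, seed and root on the lists were not measured by a named probe set, so signal from those organs was not checked.

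With full nutrients at 4 h as the control at 100 h as well, 48 of the 82 probe sets bright enough were at least 1.5-fold lower without phosphate at 100 h, 29 were within 1.5-fold and 5 were higher. Over all probe sets bright enough, 25.6% were lower. The median log2 ratio of the 94 was -0.64, in place of -1.02. This comparison shares its control with that at 4 h, and its arrays are those that the rule used. OSM34 was then 22.2-fold lower, AT4G16260 11.0-fold and AT3G44400 3.52-fold. AT2G37130 (1.06-fold lower) and AT4G18810 (1.04-fold lower) were almost at their 4 h full-nutrient level. GI, CTF2A, AT2G25250, AT2G01610 and AT2G35820 were above it. AT2G35820 was 2.03-fold above it, opposite in direction to its late difference against the 100 h array. For these 7 genes, signal at least 1.5-fold lower late was found only against the array whose title code is in doubt. PKDM7D and AT4G29030 were too dim on both arrays for this comparison.

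**Figure D4:**
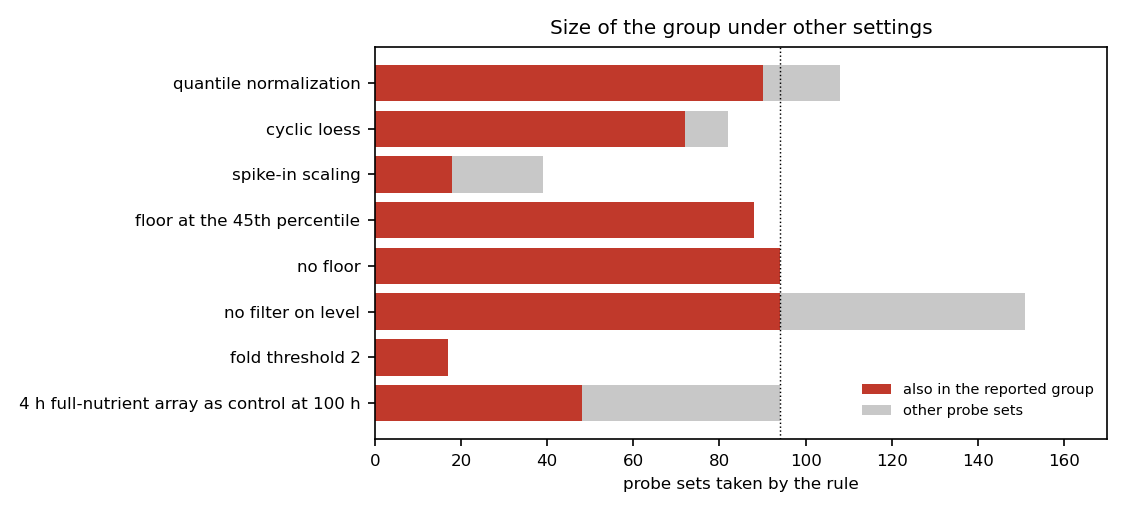
Bars count the probe sets that the rule takes under each other setting (horizontal axis), red for those also in the reported group and grey for others; the dotted line marks the 94 as reported. Quantile normalization kept 90 of the 94, cyclic loess 72 and spike-in scaling 18, and a threshold of 2-fold left 17.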

How the data were processed

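The authors deposited linear intensities, 1 per probe set, for 4 Affymetrix arrays of 8297 probe sets. Background correction, summary method and software were not given in the sources used here. After 2% of the values were trimmed at each end, every array had a mean of 100.0, so the deposited intensities had been scaled alike, and no further scaling was applied. The 50 controls were left out. The floor (7.25) and level (22.45) are means over arrays of the 30th percentile and the median of all 8297 probe sets, as the rule states them; without the controls, as first planned, they are 7.275 and 22.475 and give the same 94 probe sets. Of 8247 probe sets, 3794 named 1 gene in the platform annotation, 70 several and 4383 none, and 3784 were matched to the RefSeq table (TAIR10.1, used for names, chromosomes and gene order). That table holds no gene descriptions, so families were not counted by description, and roles are background knowledge. No sequences were used here. The group and the lists were chosen with earlier results of these data known. All named probe sets of the group are given; others follow the stated rule or are said to be picked after their values were seen. No test was run, since each group has 1 array and the rule used all of them. Python 3.11.15, pandas 2.3.3, R 4.3.3 and limma 3.58.1 (quantile normalization and cyclic loess only) were used. The code of the rule was checked on simulated data, with 2-fold changes in bright probe sets and little noise. That check does not measure the error of the rule on these arrays. The number of arrays limits precision. Alternatives were other normalizations, floors, filters and folds, and another control array.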

Additional observations from a re-analysis of the deposited data

How the results depend on the processing

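Scaling to the spike-in probe sets moved both median phosphate ratios of the 94 further than any other alternative run. The median log2 phosphate ratio of all 4053 probe sets moved to 0.54 at 4 h and 1.08 at 100 h, and that of the 94 to 1.32 and, with reversed sign, 0.0394. The rule then took 39 probe sets, 18 of them among the 94. All 94 were above 0 at 4 h and 46 below 0 at 100 h. The ratio at 100 h turned positive for CRT1b (0.0429), AT2G25250 (0.44), AT2G37520 (0.36), AT2G26780 (0.46), AT1G23040 (0.10), AT2G19130 (0.16), CTF2A (0.0562), GI (0.44), QPT (0.37), AT2G35820 (0.11) and AT4G18810 (0.39). The shift of all probe sets follows from the scaling itself. With full nutrients at 4 h as the control at 100 h, the ratio turned positive for AT2G25250 (0.28), CTF2A (0.0469), GI (0.27), AT2G35820 (1.02) and AT2G01610 (0.38); the rule then took 94 probe sets, 48 of them among those reported. The number of probe sets was 151 with no filter on level and 17 at 2-fold, against 108 after quantile normalization, 82 after cyclic loess, 88 with the floor at the 45th percentile and 94 with no floor. In these 4 settings all 94 kept both signs. Of 299 values for named genes under other settings, 233 moved by less than the measurement SD, 50 by more and 16 changed sign. Low signal limits the 31 probe sets with an array under the level of 22.45, and folds against an array under the floor of 7.25 are bounds.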
